A study of Mus musculus with 3 samples.

Results

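Suprabasal interfollicular keratinocytes were examined in 3 droplet-based single-cell RNA libraries of dorsal skin from C57BL/6 mice, with 1 library each from neonatal, 3-week-old and 2-month-old animals. The series concerns the IL-1 and WNT pathways, and no treatment or engineered allele is given for any of the 3 groups. The number of animals per library and their sex are not given in the sources used here, nor is the exact neonatal day. In such libraries each transcript molecule carries a unique molecular identifier (UMI) and each droplet a barcode, so a value is a count of UMIs per gene and barcode.

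Members were picked by keratin counts among barcodes that had no fewer than 300 genes and 500 UMIs, with mitochondrial UMIs at 10% or less. A member had Krt1 and Krt10 together at 1% of its UMIs or more, at least as many Krt1+Krt10 as Krt5+Krt14+Krt15 UMIs, fewer than 5 Krt17+Krt79 UMIs and no UMI of the leukocyte gene Ptprc. This gave 449 of 26143 kept barcodes, with 83 of 7911 in the neonatal, 201 of 8900 in the 3-week and 165 of 9332 in the 2-month library. Measured values thus chose the members, and the 8 genes of the rule are left out of every count of genes below. Because each age is 1 library, age cannot be told apart from animal, digestion or library preparation. No test between ages was possible, and all intervals are 95% intervals that cover counting error only. A gene was called higher or lower when its level differed at least 2-fold, which is a rule of size and not of significance.

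Interfollicular epidermis renews from a basal layer that carries Krt5, Krt14 and integrins and rests on the basement membrane. Cells that leave this layer switch to Krt1 and Krt10 in the spinous layers, strengthen their desmosomes, and in the granular layer make loricrin, filaggrin and barrier lipids before they cornify. In mice the epidermis is thick at birth and thins as the first hair coat grows.

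The starts of 4 genes whose levels set the neonatal apart from the older members are shown for orientation: Krt77, a suprabasal type II keratin, Stfa3, a cysteine protease inhibitor, and Flg and Flg2, genes of the epidermal differentiation cluster, which encode the granular proteins filaggrin and filaggrin-2. They were chosen after their values were seen. Each is a 300-base RefSeq window around the annotated start (GRCm38.p6), printed on the gene's strand, at chr15:101869656-101869955 (minus) for Krt77, chr16:36455343-36455642 (minus) for Stfa3, chr3:93273296-93273595 (plus) for Flg and chr3:93197023-93197322 (plus) for Flg2. Capitals mark matches, on either strand, to TGANTCA (the AP-1 motif), TATAAA (the TATA box) or GCCNNNGGC (the AP-2 motif).
Krt77: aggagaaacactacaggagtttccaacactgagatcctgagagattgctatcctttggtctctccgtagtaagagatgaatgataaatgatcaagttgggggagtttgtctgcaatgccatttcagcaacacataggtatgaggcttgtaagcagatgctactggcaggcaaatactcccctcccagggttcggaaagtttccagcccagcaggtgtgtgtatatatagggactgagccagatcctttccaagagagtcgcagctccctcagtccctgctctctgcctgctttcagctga
Stfa3: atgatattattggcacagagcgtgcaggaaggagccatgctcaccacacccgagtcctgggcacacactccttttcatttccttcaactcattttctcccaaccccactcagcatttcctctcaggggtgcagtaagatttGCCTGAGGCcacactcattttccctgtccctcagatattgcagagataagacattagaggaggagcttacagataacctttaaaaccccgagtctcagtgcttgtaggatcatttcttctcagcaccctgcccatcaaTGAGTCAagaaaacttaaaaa
Flg: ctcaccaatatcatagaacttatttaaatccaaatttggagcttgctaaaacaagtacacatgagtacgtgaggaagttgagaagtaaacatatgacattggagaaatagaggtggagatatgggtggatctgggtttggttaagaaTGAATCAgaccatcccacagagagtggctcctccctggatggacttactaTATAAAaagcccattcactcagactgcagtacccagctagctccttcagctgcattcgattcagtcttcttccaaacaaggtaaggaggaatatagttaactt
Flg2: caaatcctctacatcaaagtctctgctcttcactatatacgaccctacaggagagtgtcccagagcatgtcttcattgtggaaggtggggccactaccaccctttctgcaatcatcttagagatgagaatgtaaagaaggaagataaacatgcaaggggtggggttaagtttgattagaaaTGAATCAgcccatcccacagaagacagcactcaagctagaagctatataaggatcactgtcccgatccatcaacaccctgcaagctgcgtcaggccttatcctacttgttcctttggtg
The AP-1 letters lay at position -103 relative to the start in Flg, -69 in Flg2 and 30 in Stfa3. TATAAA was matched at -53 in Flg, and the AP-2 letters at -109 in Stfa3. None of the 3 motifs was matched in the Krt77 window. Of all 32851 promoter windows of this length, 7.81% held TGANTCA, 13.6% TATAAA and 16.6% GCCNNNGGC, and a match describes the letters only.

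Members made up 1.05% of kept barcodes in the neonatal library (exact binomial interval 0.837% to 1.30%). Their share was 2.26% at 3 weeks, with an interval of 1.96% to 2.59%, and 1.77% at 2 months, with bounds of 1.51% to 2.06%. Barcodes in which Krt5+Krt14+Krt15 prevailed, called basal-keratin barcodes here, numbered 32, 747 and 665 in these libraries. Members were 72.2% of both classes together in the neonatal library (interval 63.0% to 80.1%). At 3 weeks they were 21.2% of both (18.6% to 23.9%), and at 2 months 19.9% of both (17.2% to 22.8%). Members outnumbered basal-keratin barcodes in the neonatal library, and the reverse held at the later ages. How readily either layer was released from the tissue was not tested. A further 43 neonatal, 53 3-week and 58 2-month barcodes failed on Krt17+Krt79 alone, a limit in UMIs that excludes deep barcodes more readily.

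Members were deep, with a median of 23864 UMIs in the neonatal, 16188 in the 3-week and 13439 in the 2-month library, beside 8685, 11142.5 and 8529.5 UMIs over all kept barcodes. Their UMIs summed to 2364828, 4620046 and 3170069. Median mitochondrial shares were 3.17%, 3.20% and 2.46%, and no member barcode occurred in more than 1 library. The median Krt1+Krt10 share was 5.21% of UMIs in neonatal members, 2.61% at 3 weeks and 2.22% at 2 months. The member nearest the 1% limit held 1.26%, 1.04% and 1.002% in these libraries, and the nearest barcode outside it 0.996%, 0.964% and 0.986%.

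Summed levels of the markers outside the rule went with the label, while detection alone separated members less clearly from basal-keratin barcodes. Krtdap, a secreted protein of differentiating keratinocytes, was found in all 449 members. Sbsn, the secreted protein suprabasin, was found in 80 of 83 neonatal, 201 of 201 3-week and 162 of 165 2-month members. In basal-keratin barcodes Krtdap was found in 29 of 32 neonatal, 252 of 747 3-week and 199 of 665 2-month barcodes. Sbsn was found in 18 of 32, 487 of 747 and 351 of 665 of them. The suprabasal keratin gene Krt77 was found in only 14 of 83 neonatal members, but in 200 of 201 3-week and 156 of 165 2-month members. Levels below are CPM, the UMIs summed over the members of a library per 1000000 UMIs of all genes. The suprabasal markers other than Krt1 and Krt10 summed to 36793 CPM in neonatal, 53079 CPM in 3-week and 47615 CPM in 2-month members, against 1172, 3943 and 5703 CPM in the other kept barcodes. Krt2, a late keratin of ear and tail skin, stood at only 0.846, 3.90 and 9.46 CPM.

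Markers of some other cells were at or near 0 in members, and those of others were not. T or innate lymphoid markers summed to at most 0.315 CPM, with Cd3e, Cd3g and Gzmc at 0 in every library. Of 9 lower follicle markers, 7 were at 0 in every library, Krt71, Krt75 and Shh among them. The 4 upper follicle markers outside the rule summed to 449 CPM in neonatal, 645 CPM in 3-week and 645 CPM in 2-month members, against 135, 1097 and 1342 CPM in the other barcodes, and Cst6, also a granular gene, gave 399.6, 479 and 501 CPM of the members' sums. Sebaceous markers summed to 108, 191 and 170.3 CPM in members, with Mc5r and Far2 at 0 in each library, and Langerhans cell markers to 81.6, 142 and 179 CPM, with Cd207 at 0 in neonatal members. Schwann cell markers summed to 30.9, 88.7 and 207 CPM in members, against 161, 832 and 1150.2 CPM in the other barcodes. All 6 fibroblast markers were present, with a sum of 344 CPM in neonatal, 8269 CPM in 3-week and 3178 CPM in 2-month members, against 38788, 113116 and 98403 CPM in the other barcodes. Fibroblast collagens reached 1% of UMIs in 0 neonatal, 14 3-week and 3 2-month members. Haemoglobin genes summed to 265, 3133 and 78.9 CPM, but few barcodes carried most of them at 3 weeks, where the median member had 104 CPM and the highest 250240 CPM.

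The 3-week members stood far from the neonatal members and near the 2-month members. Of 5358 genes with a mean of at least 20 CPM, 641 were higher at 3 weeks than in the neonatal library (12%) and 252 were lower (4.7%). Of 5350 genes, 49 were higher at 2 months than at 3 weeks (0.916%) and 68 were lower (1.27%). Set against the neonatal library, 788 genes were higher at 2 months (14.7%) and 330 were lower (6.16%). Counts over the gene lists below are best read beside these shares of all genes. The median gene had a log2 ratio of 0.11 for 3 weeks over neonatal and 0.03 for 2 months over 3 weeks. Krt1 and Krt10 took 31133 and 37103 CPM of the neonatal total. With the rule genes and mitochondrial, ribosomal and haemoglobin genes out of the totals, 699 of 6317 genes were higher and 394 lower at 3 weeks. More genes passed the filter in that setting, so these counts do not compare directly with 641 and 252 of 5358. Without the collagen-positive members, 41 genes were lower at 2 months than at 3 weeks.

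Krt77 headed the genes that were higher at 3 weeks. It stood at 13.5 CPM in neonatal (Poisson interval 9.26 to 19.1), 11582 CPM in 3-week and 8771 CPM in 2-month members. Per member, the lowest, median and highest levels were 0, 0 and 10.1 UMIs per 10000 in the neonatal library, 0, 55.5 and 330 at 3 weeks, and 0, 32.8 and 294 at 2 months. Of the older members, 183 of 201 at 3 weeks and 122 of 165 at 2 months lay above the highest neonatal member, so the groups overlapped in their low part. The 3-week level was 856-fold above the neonatal level (log2 9.74, interval 9.24 to 10.29). The 2-month level was within 2-fold of it (log2 -0.40).

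The stefins, inhibitors of cysteine proteases encoded by a cluster of near-identical genes, ran the other way. Stfa3 stood at 8674 CPM in neonatal, 15.2 CPM in 3-week and 2.21 CPM in 2-month members. Its lowest, median and highest levels per member were 4.76, 80.7 and 274 UMIs per 10000 in the neonatal library, 0, 0 and 12.05 at 3 weeks, and 0, 0 and 1.05 at 2 months. All but 1 of the 201 3-week members and all 165 2-month members lay below the lowest neonatal member. The 3-week level was 572-fold below the neonatal level (log2 -9.16). Stfa1 had 3968 CPM in neonatal, 35.3 CPM in 3-week and 8.20 CPM in 2-month members, and the stefin gene BC100530 had 13201, 31.6 and 11.04 CPM. Stfa2 had 514 CPM in neonatal members and 0 UMIs at both later ages, at least 791-fold lower at 3 weeks against a floor of 3 counts. Reads may have been split among these copies, so the family is better read as a whole. Neonatal basal-keratin barcodes also held 3929 CPM of Stfa3, 3653 CPM of Stfa1 and 9773 CPM of BC100530, so these transcripts were not limited to members.

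**Figure D1:**
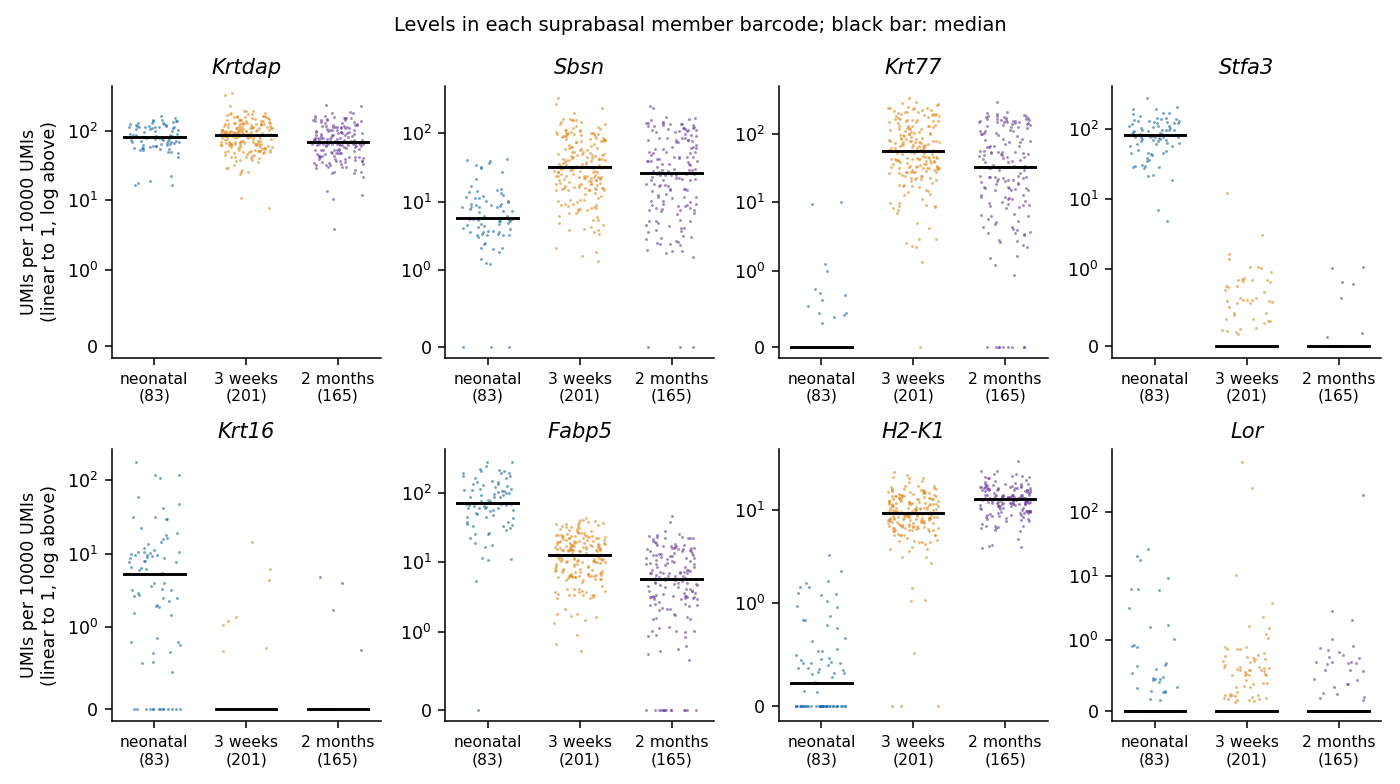
Level of each named gene in every member barcode, as UMIs per 10000 UMIs (linear to 1, logarithmic above), by library with the number of members in brackets; black bars are medians. Krt77 has medians of 0, 55.5 and 32.8 in neonatal, 3-week and 2-month members, while Stfa3 runs the other way, with medians of 80.7, 0 and 0.

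Of the 24 spinous differentiation genes in the files, 22 were measured, meaning a mean of at least 20 CPM. At 3 weeks 9 were higher and 3 lower than in neonatal members (median log2 ratio 0.60), beside 12% and 4.7% of all genes. At 2 months 0 were higher and 1 lower than at 3 weeks, with a median of -0.02. Krtdap differed little, at 9624 CPM in neonatal, 11214 CPM in 3-week and 9787 CPM in 2-month members, as did the galectin Lgals7 at 11726, 12741 and 12498 CPM. Sbsn had 1314 CPM in neonatal, 7116 CPM in 3-week and 7327 CPM in 2-month members, 5.41-fold higher at 3 weeks. Its median per member was 5.78, 31.8 and 26.8 UMIs per 10000, and 77 of 201 3-week members lay above the highest neonatal one, so the groups overlapped widely.

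Metallothionein Mt4, a metal-binding protein of stratified epithelia, had 39.3 CPM in neonatal, 698 CPM in 3-week and 913 CPM in 2-month members. The keratin Krt78 had 67.2, 284 and 252 CPM, and Dapl1, a marker of early epithelial differentiation, 202, 1521 and 1550 CPM. Butyrophilin-like Skint genes, whose family member Skint1 in mice selects dendritic epidermal T cells, were also low in neonatal members. Skint3 had 9.73, 85.7 and 85.5 CPM and Skint9 126, 276 and 219.6 CPM, while Skint5 had 3 UMIs (1.27 CPM, interval 0.262 to 3.71) in neonatal members and 58.0 and 71.3 CPM at 3 weeks and 2 months. Skint genes resemble each other, so reads could be shared between them.

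The 3 spinous genes that were lower at 3 weeks were Fabp5, Endou and Ly6d. Fabp5, the epidermal fatty acid carrier, had 10765 CPM in neonatal, 1684 CPM in 3-week and 1051 CPM in 2-month members, 6.39-fold lower at 3 weeks (log2 -2.68). All 201 3-week and all 165 2-month members lay below the neonatal median of 70.4 UMIs per 10000, although the ranges overlapped. Endou, an endoribonuclease, had 450 CPM in neonatal, 63.9 CPM in 3-week and 33.4 CPM in 2-month members. The surface protein Ly6d had 10015, 4851 and 4570 CPM, just past the 2-fold limit (log2 -1.05).

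Krt16 and Krt6a, keratins of thickened or wounded epidermis, were highest in the neonatal library. Krt16 had 1631 CPM in neonatal, 9.09 CPM in 3-week and 6.31 CPM in 2-month members, 179-fold lower at 3 weeks. It was found in 69 of 83 neonatal, 8 of 201 3-week and 4 of 165 2-month members. Krt6a had 46.9, 7.14 and 0.946 CPM, a mean under the 20 CPM filter, so it is in no count of called genes. The neonatal basal-keratin barcodes held 1402 CPM of Krt16, close to the members' level. Within the list of 24 stress keratins and alarmins only 5 genes were measured, with 2 higher and 2 lower at 3 weeks. Their median log2 ratio was 0.86, so the list as a whole did not follow Krt16. S100a9, a calcium-binding alarmin, had 167 CPM in neonatal members, nearly all of it in 1 barcode (99.0%), and 0 UMIs later.

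Proteases and their inhibitors moved in both directions. At 3 weeks 6 of 22 measured genes were higher and 4 lower (median log2 0.52), beside 12% and 4.7% of all genes. At 2 months 1 was higher and 4 were lower than at 3 weeks, beside 0.916% and 1.27% of all genes. The kallikreins, serine proteases that shed corneocytes by cutting desmosomal proteins, were highest at 3 weeks. Klk5 had 142 CPM in neonatal, 468 CPM in 3-week and 253 CPM in 2-month members, Klk7 121, 360 and 133 CPM (71.9, 267 and 98.7 CPM without its highest barcode), and Klk8 264, 446 and 138 CPM. Spink5, which encodes the kallikrein inhibitor LEKTI, had 200.01, 517 and 666 CPM. Serpinb3a, a serpin, had 149 CPM in neonatal members and 3 and 1 UMIs at 3 weeks and 2 months (0.649 and 0.315 CPM). Without the highest barcode it had 96.8 CPM in neonatal members. Cathepsin C (Ctsc) had 208, 64.1 and 57.7 CPM.

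Other genes high in neonatal members lay outside the lists. 2610528A11Rik had 252 CPM in neonatal, 1.30 CPM in 3-week and 1.58 CPM in 2-month members. Aox4, an aldehyde oxidase, had 80.8 CPM in neonatal members and 0 UMIs at both later ages, at least 124-fold lower at 3 weeks. Tdh, annotated as a threonine dehydrogenase, had 206, 13.4 and 0.631 CPM.
Among genes low in neonatal members, 2310050C09Rik had 0 UMIs there and 137 and 175 CPM at 3 weeks and 2 months, at least 108-fold higher at 3 weeks. Pkib, a protein kinase A inhibitor, had 2 UMIs in neonatal members (0.846 CPM) and 170.1 and 262 CPM later. Pla2g16, a phospholipase, had 3.38, 163 and 153 CPM.

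Of 50 granular and envelope genes in the files, 22 were measured. At 3 weeks 8 were higher and 7 lower than in neonatal members (median log2 0.11), beside 12% and 4.7% of all genes. At 2 months 0 were higher and 8 lower than at 3 weeks (median log2 -0.83, with 1.27% of all genes lower). At 2 months over neonatal, 5 were higher and 11 lower (median log2 -0.44). The 10 late granular markers were sparse. At least 3 of them were found in 51 of 83 neonatal members (61.4%, exact interval 50.1% to 71.9%), 77 of 201 3-week members (38.3%, 31.6% to 45.4%) and 46 of 165 2-month members (27.9%, 21.2% to 35.4%). They reached 1% of UMIs in only 3, 2 and 1 members, so few barcodes carried a granular load. Neonatal members were the deepest, and the part of depth in these shares was not tested.

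Filaggrin and filaggrin-2, encoded in the same cluster on chromosome 3, ran in opposite directions. Flg had 825 CPM in neonatal, 17.1 CPM in 3-week and 0.315 CPM in 2-month members, the last from 1 UMI. It was found in 18 of 83, 11 of 201 and 1 of 165 members, and was 48.2-fold lower at 3 weeks than in the neonatal library. Flg2 had 1 UMI in neonatal members (0.423 CPM, interval 0.0107 to 2.36), and 112 CPM in 28 of 201 3-week and 46.7 CPM in 10 of 165 2-month members. Hrnr, encoding the related protein hornerin, had 15.2, 64.7 and 7.57 CPM, but 4.23, 6.49 and 0.631 CPM without the 3 highest barcodes of each library. Without its highest barcode Flg had 521, 9.52 and 0 CPM and Flg2 0, 64.5 and 13.2 CPM, so both levels rest on few members. Corneodesmosin (Cdsn), an adhesion protein of corneodesmosomes, had 1 UMI in neonatal members and 153 and 99.7 CPM at 3 weeks and 2 months, or 91.3 and 79.8 CPM without the highest barcode. Involucrin (Ivl), an envelope scaffold, had 19.0, 139.6 and 76.0 CPM, with 55.6% of the neonatal UMIs in 1 barcode.

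Loricrin (Lor), the main envelope protein, rested on few barcodes. It had 296 CPM in neonatal, 785 CPM in 3-week and 319.6 CPM in 2-month members, but a single barcode held 38.3%, 66.8% and 95.5% of its UMIs. Without that barcode the levels were 182, 261 and 14.5 CPM. It was found in 33 of 83 neonatal, 66 of 201 3-week and 30 of 165 2-month members. The transglutaminases, which cross-link the envelope, were highest in neonatal members, with Tgm1 at 60.5, 29.0 and 19.6 CPM and Tgm3 at 104, 3.90 and 2.84 CPM. The proteases of filaggrin processing followed, with Casp14 at 256, 108 and 67.8 CPM and Asprv1 at 925, 544 and 251.1 CPM. The serpin Serpinb12 had 623, 191 and 91.2 CPM. Calm4, a calmodulin-like protein also known as Scarf, had 8629, 4291 and 4313 CPM.

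Small proline-rich (SPRR) proteins, envelope cross-bridges whose Sprr2 copies are nearly identical, had 6 of 14 genes measured, of which 0 were higher and 5 lower at 3 weeks. Over all genes 12% were higher and 4.7% lower at this step. Sprr1b had 453 CPM in neonatal, 19.0 CPM in 3-week and 6.94 CPM in 2-month members. Sprr1a had 203, 142 and 42.0 CPM, but 1 barcode held 63.1% of its neonatal and 70.5% of its 3-week UMIs. Without the highest barcode Sprr1a had 74.8, 42.0 and 32.5 CPM and Sprr1b 398, 5.41 and 3.47 CPM. The measured Sprr2 genes had 52.4 to 88.8 CPM in neonatal members. The neonatal UMIs of Sprr2d, Sprr2i and Sprr2k came from 1 barcode each, as did 94.4% of those of Sprr2h. The lower calls of these Sprr2 genes at 3 weeks thus rest on single neonatal barcodes. At 2 months over 3 weeks only 4 SPRR genes were measured, with 0 higher and 4 lower (median log2 -1.61). The 3-week UMIs of Sprr2d (11) and Sprr2h (63) came from 1 barcode each.

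Of 9 measured desmosome genes, 0 were higher and 0 lower at either step. At the first step 12% and 4.7% of all genes were called, so a count over a list this short says little. Desmoplakin (Dsp), which ties desmosomes to keratin, had 1138 CPM in neonatal, 1472 CPM in 3-week and 1548 CPM in 2-month members, and the cadherin Dsg1a had 578, 1000.2 and 1165 CPM. Of 15 measured tight and gap junction genes, 8 were higher and 2 lower at 3 weeks (median log2 1.25, beside 0.11 over all genes). The tight junction genes Cldn4 and Cgn had 97.3, 269 and 332 CPM and 16.9, 55.0 and 62.1 CPM. Among connexins, which form gap junction channels, Gjb5 was higher at 3 weeks, and Gjb2 and Gja1 were lower. Gjb5 had 103.2 CPM in neonatal, 394 CPM in 3-week and 330.3 CPM in 2-month members. Gjb2 had 218, 44.4 and 29.7 CPM, and Gja1 319.7, 101 and 55.2 CPM.

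Lipid barrier genes had 27 of 41 measured. At 3 weeks 7 were higher and 3 lower (median log2 0.26), beside 12% and 4.7% of all genes. At 2 months 0 were higher and 1 lower than at 3 weeks. Alox12e, an epidermal lipoxygenase in mice, had 2.11 CPM in neonatal, 141 CPM in 3-week and 184 CPM in 2-month members, 66.7-fold higher at 3 weeks. Scd1, a fatty acid desaturase, had 27.9, 179 and 156 CPM. Abca12, which loads lamellar bodies with lipid, had 33.8, 93.1 and 125 CPM, and the ceramidase Acer1 156, 369 and 372 CPM. Elovl4, which makes the very long chains of barrier ceramides, was within 2-fold at 644, 818 and 767 CPM. Degs1, a ceramide desaturase, had 341, 149 and 173 CPM, and the lipoxygenase Alox12b was lowest at 2 months, at 45.7, 34.8 and 7.57 CPM.

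Of 28 measured differentiation transcription factors, 5 were higher and 2 lower at 3 weeks (median log2 0.17), beside 12% and 4.7% of all genes. Gata3, a factor of barrier formation, had 115 CPM in neonatal, 457 CPM in 3-week and 559 CPM in 2-month members. Maf, which is known to act in keratinocyte differentiation, had 17.8 CPM in neonatal and 141 CPM in 2-month members. Barx2, a homeobox factor, had 374, 129 and 71.3 CPM in neonatal, 3-week and 2-month members. Klf4 stayed within 2-fold at 959.9, 822 and 1145 CPM, as did Grhl1 and Zfp750. Nr1d1, a clock gene, was the 1 factor higher at 2 months than at 3 weeks, at 13.5, 39.0 and 89.3 CPM. Of 10 measured Notch pathway genes, 0 were higher or lower at either step, also a short list. Notch3 had 42.7, 45.2 and 60.9 CPM and the Notch target Nrarp 159, 158.9 and 147 CPM.

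Of 14 measured basal and hemidesmosome genes, 7 were higher and 2 lower at 3 weeks than in neonatal members (median log2 1.001). Over all genes 12% were higher and 4.7% lower. Col17a1, a hemidesmosomal collagen, had 23.7 CPM in neonatal, 177 CPM in 3-week and 243 CPM in 2-month members, against 379, 1053.5 and 1019 CPM in basal-keratin barcodes. The highest members held 6.86, 11.6 and 19.3 UMIs of it per 10000 at the 3 ages, so single members reached the mean level of basal-keratin barcodes. Itga6 had 24.9, 80.3 and 87.7 CPM. The smaller part of neonatal members in the lowest keratin band, given further on, moved with these genes, and its part in them was not tested. Postn, a matrix protein, had 138, 14.9 and 8.20 CPM. Sparc, a collagen-binding protein that fibroblasts also make, had 63.4, 2955 and 1285 CPM, with 48.0%, 33.5% and 78.5% of its UMIs in 3 barcodes. Cell cycle genes had 1 of 9 measured genes higher and 0 lower at 3 weeks, beside 12% and 4.7% of all genes. The higher gene was the cycle inhibitor Cdkn1a, at 465, 994 and 1468 CPM. Mki67 had 13.1, 2.38 and 1.89 CPM.

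MHC class I and interferon genes were almost all higher at the later ages, in 10 of 12 measured genes at 3 weeks against 12% of all genes, with 0 lower (median log2 3.06). H2-K1, a class I heavy chain, had 42.3 CPM in neonatal, 1017 CPM in 3-week and 1388 CPM in 2-month members. Its lowest, median and highest levels per member were 0, 0.22 and 3.26 UMIs per 10000 in the neonatal library, 0, 9.38 and 25.8 at 3 weeks, and 3.91, 13.2 and 33.8 at 2 months. All 165 2-month members and 191 of 201 3-week members lay above the highest neonatal member. The 3-week level was 24.1-fold above the neonatal level (log2 4.59).

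The other class I genes had the same order. B2m, the light chain, had 27.5 CPM in neonatal, 536 CPM in 3-week and 908 CPM in 2-month members, H2-D1 141, 985 and 1323 CPM, and the peptide transporter gene Tap1 9.73, 68.6 and 91.5 CPM. Nlrc5, the class I transactivator, had 0 UMIs in neonatal members and 32.3 and 45.1 CPM later, at least 25.4-fold higher at 3 weeks. The difference was not limited to members. H2-K1 had 37.7, 1349 and 1659 CPM in basal-keratin barcodes and 69.3, 740.2 and 948 CPM in collagen-rich barcodes, which held fibroblast collagens at 1% of UMIs or more. Class I genes resemble each other, so reads could be shared between them.

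**Figure D2:**
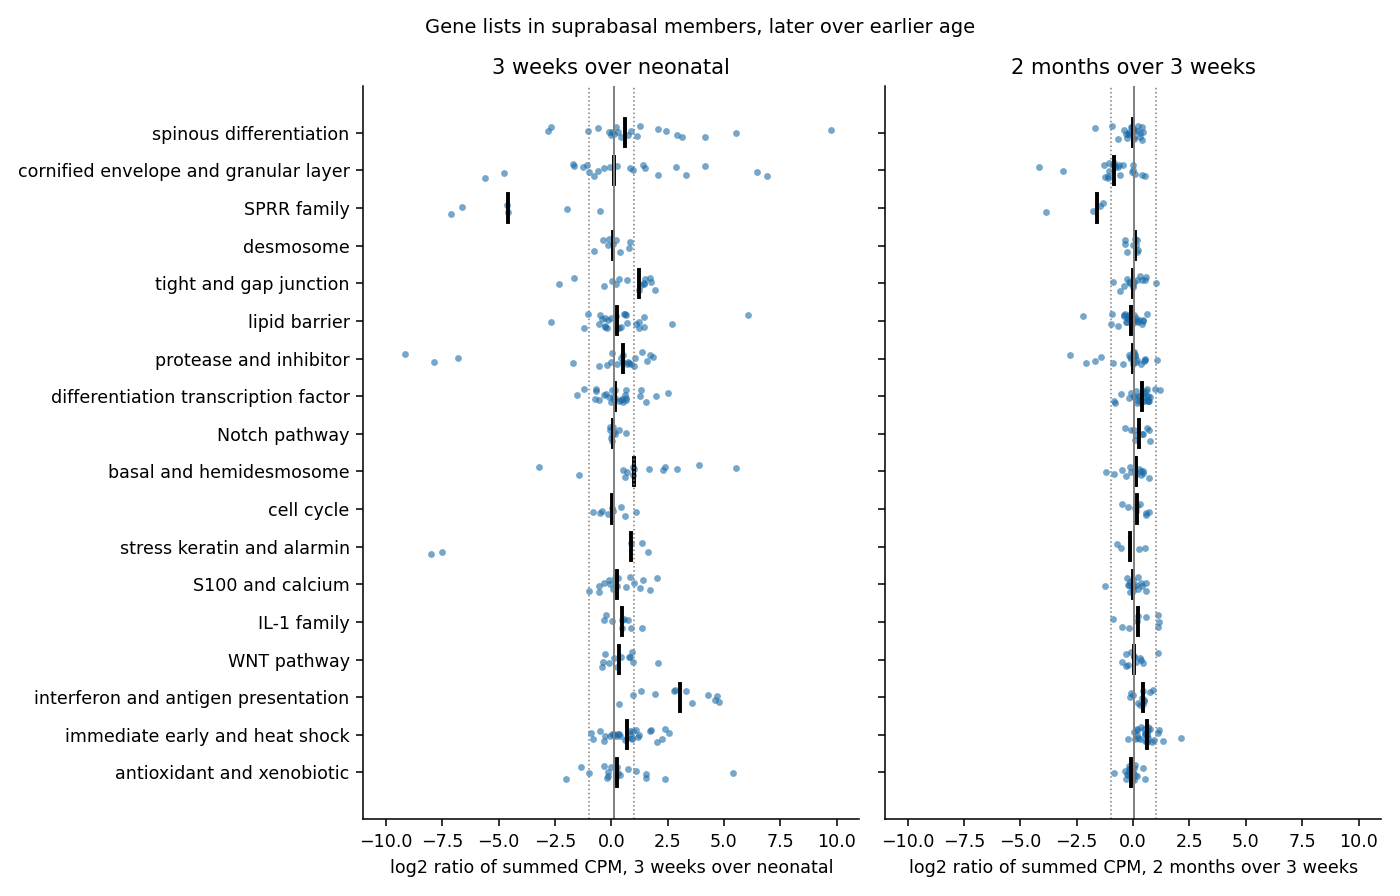
Log2 ratio of summed CPM for each measured gene, by gene list, for 3 weeks over neonatal and for 2 months over 3 weeks. The ratios spread widely in the first step, with an interferon and antigen presentation median of 3.06. In the second step the median over all genes is 0.03. The SPRR list has a median of -1.61 over only 4 genes, and the granular and envelope list -0.83 over 22 genes.

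Immediate early genes, which respond within minutes to stimulation and tissue dissociation, were counted in 1 list with heat shock genes. Of the 29 measured genes of this list, 9 were higher and 0 lower at 3 weeks, beside 12% and 4.7% of all genes. At 2 months over 3 weeks, 4 were higher and 0 lower (median log2 0.61), beside 0.916% and 1.27% of all genes. Fos had 1058 CPM in neonatal, 2420.3 CPM in 3-week and 3701 CPM in 2-month members, Fosb 59.2, 344 and 747 CPM, and Atf3 403, 951 and 2105 CPM. Fosl1 had 27.9, 16.02 and 70.0 CPM. The same order was present outside members, with Fos at 1389, 2614 and 4566 CPM in basal-keratin and 1347, 2331 and 3753 CPM in collagen-rich barcodes, and the part of dissociation in it was not tested. The heat shock protein gene Hspb1 had 1167, 6058 and 6907 CPM, whereas Hspa1a was within 2-fold at 2966, 2085 and 2183 CPM.

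In the IL-1 and NF-kB list, 1 of 9 measured genes was higher and 0 lower at 3 weeks, beside 12% and 4.7% of all genes. At 2 months 3 of the list were higher than at 3 weeks, beside 0.916% of all genes. Those 3 were Nfkbia, Nfkbiz and Tnfaip3, feedback regulators of NF-kB. Nfkbia had 1229 CPM in neonatal, 2274 CPM in 3-week and 4897 CPM in 2-month members, Nfkbiz 109, 151 and 332 CPM, and Tnfaip3 38.1, 97.6 and 209.8 CPM. They stood beside the immediate early genes, whose part was not tested. The antagonist Il1rn had 71.9, 100.4 and 71.0 CPM, and Il1f5, which encodes the IL-36 receptor antagonist, 112, 89.6 and 48.9 CPM. Ligands were scarce, with Il1a at 7.19, 0 and 2.52 CPM and Il1b at 2.54, 0.866 and 0.315 CPM. The decoy receptor Il1r2 had 3.38, 33.1 and 22.1 CPM in members, against 15.5, 275 and 229 CPM in basal-keratin barcodes. Il33, a nuclear alarmin, had 0, 9.31 and 8.83 CPM in members, against 4.43, 122 and 107 CPM in basal-keratin barcodes.

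WNT genes had 1 of 12 measured genes higher and 0 lower at 3 weeks, beside 12% and 4.7% of all genes. A count this small does not set the list apart. The ligand Wnt3 had 24.5 CPM in neonatal, 102 CPM in 3-week and 96.5 CPM in 2-month members, whereas Wnt4 had 214, 159 and 127 CPM. Dkkl1, a dickkopf-like secreted protein, had 106, 206 and 210.4 CPM in members, against 0, 0.372 and 0.378 CPM in basal-keratin barcodes. Wnt10a had 0.846 CPM (2 UMIs), 16.5 and 11.7 CPM in members, against 73.1, 215 and 157 CPM in basal-keratin barcodes. The feedback target Axin2 had 16.5, 29.2 and 23.3 CPM in members. Tcf7l2, a nuclear factor of the pathway, was the 1 gene higher at 2 months than at 3 weeks, at 17.8, 14.7 and 31.2 CPM.

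Antioxidant genes had 5 of 18 measured genes higher and 2 lower at 3 weeks (median log2 0.24), beside 12% and 4.7% of all genes. Prdx5, a peroxiredoxin, had 518 CPM in neonatal, 1519 CPM in 3-week and 1704 CPM in 2-month members, and catalase (Cat) 25.8, 135 and 106 CPM. Gsto1, a glutathione transferase, had 409, 102.8 and 91.5 CPM. Of 17 measured S100 and calcium genes, 4 were higher and 1 lower at 3 weeks (median log2 0.27), beside the same shares of all genes. Anxa8, a calcium-dependent membrane-binding protein, had 598, 2436 and 2812 CPM.

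Since depth differed between libraries and classes, barcodes were also thinned to 3000 UMIs each, which left out 1 neonatal, 0 3-week and 2 2-month members. It also left out 5, 0 and 25 basal-keratin barcodes. Collagen-rich barcodes were a fixed random draw of 1000 per library, of which 989, 991 and 955 were used. Krt77 was then found in 3.66% of neonatal, 97.5% of 3-week and 89.0% of 2-month members, against 0%, 2.12% and 1.68% of collagen-rich barcodes, which should lack it. Stfa3 was found in 100%, 3.48% and 0.613% of members, against 0.404%, 0% and 0% of collagen-rich barcodes. Krt16 was found in 63.4%, 1.99% and 1.23% of members, and Mt4 in 2.44%, 60.7% and 71.2%. The directions of these 4 genes over age thus also held at equal depth. Flg was found in 13.4%, 1.99% and 0.613% of members. Lor was found in 9.76%, 10.4% and 4.91% of members, beside 0.708%, 2.22% and 0.942% of collagen-rich barcodes. Mki67 was found in 1.22%, 0% and 1.23% of members, against 3.70%, 7.76% and 5.62% of basal-keratin barcodes. The members' low shares of Mki67 rest on at most 2 barcodes a library. Top2a was found in 1.22%, 0.995% and 4.91% of members, against 3.70%, 8.57% and 7.81% of basal-keratin barcodes. Ube2c was found in 3.66%, 0.995% and 3.07% of members, against 3.70%, 9.37% and 6.25%, so its neonatal shares were nearly equal.

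**Figure D3:**
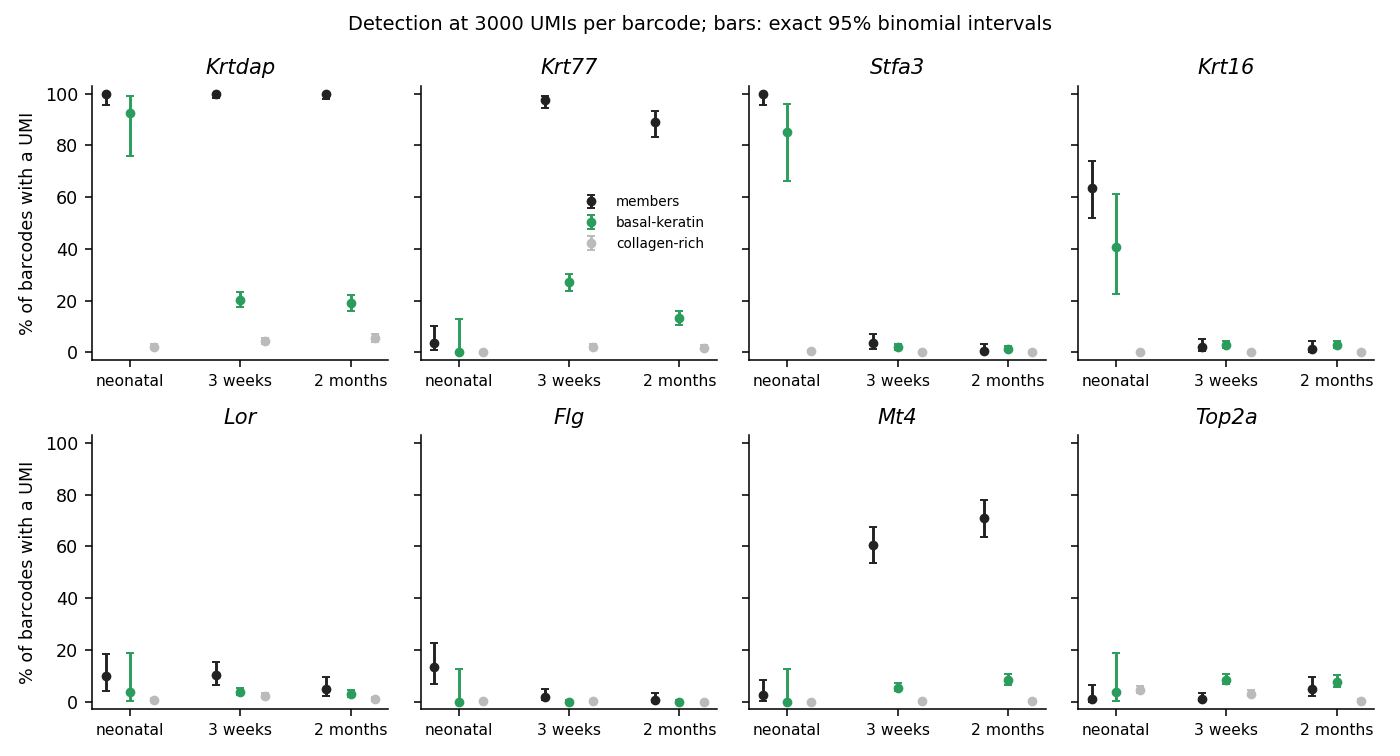
Percentage of barcodes with at least 1 UMI of each gene after thinning to 3000 UMIs, by library and class, with exact 95% binomial intervals. Classes are members, basal-keratin barcodes and a draw of 1000 collagen-rich barcodes per library, with barcodes under 3000 UMIs left out. Krt77 is found in 3.66%, 97.5% and 89.0% of neonatal, 3-week and 2-month members, and Stfa3 in 100%, 3.48% and 0.613%.

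Against basal-keratin barcodes of the same libraries, the contrast that the rule itself used, 259 of 5613 genes were at least 2-fold higher in members in all 3 libraries (4.61%) and 256 were lower (4.56%). These values describe the members and test nothing, and the neonatal side rests on 32 basal-keratin barcodes. Of the lists, 16 of 22 spinous, 13 of 16 cornified, 15 of 24 lipid barrier, 6 of 13 junction and 4 of 8 desmosome genes were higher in members and 0 were lower. Of 22 basal genes, 0 were higher and 16 lower, and of 20 cell cycle genes 0 were higher and 4 lower. Ly6g6c, a Ly6 family surface protein, had 1226 CPM in neonatal, 2912 CPM in 3-week and 3252 CPM in 2-month members, against 24.4, 42.8 and 73.9 CPM in basal-keratin barcodes. Dgat2, which makes triglycerides, had 176, 282 and 247 CPM in members, against 0, 5.58 and 10.1 CPM in basal-keratin barcodes. Gm94 had 129, 1233 and 1672 CPM in members, against 0, 9.11 and 18.6 CPM. At the low end, Lamb3, a laminin of the basement membrane, had 0.846, 11.7 and 10.4 CPM in members, against 81.9, 197 and 183 CPM in basal-keratin barcodes. Jag2, a Notch ligand, had 0, 2.81 and 3.47 CPM in members, against 37.7, 61.8 and 48.6 CPM.

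Members were also graded by the share of Krt1+Krt10 among the 5 keratins Krt1, Krt10, Krt5, Krt14 and Krt15, a range and not a cell type. The lowest band (0.5 to under 0.8) held 15 of 83 neonatal, 67 of 201 3-week and 54 of 165 2-month members. The middle band (0.8 to under 0.95) held 23, 72 and 46, and the top band (0.95 and over) 45, 62 and 65. The top band thus made up 54.2% of neonatal (exact interval 42.9% to 65.2%), 30.8% of 3-week (24.5% to 37.7%) and 39.4% of 2-month members (31.9% to 47.3%). Top-band barcodes were deeper, with a median of 30944 UMIs in the neonatal, 27481 in the 3-week and 17336 in the 2-month library, against 19086, 14012 and 12042 in the lowest band. The part of depth in the bands was not tested.

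Krtdap, Klk7 and Lor were highest in the top band of each library. For Lor at 2 months this order rests on 1 barcode, which held 967 of its 1013 UMIs. Krtdap had 6709, 7533 and 10874 CPM from the lowest to the top band in neonatal, 7593, 9835 and 14420.4 CPM in 3-week, and 5914, 9365 and 11971 CPM in 2-month members. Klk7 had 3.26, 7.97 and 180.0 CPM in neonatal, 87.1, 158 and 675 CPM in 3-week, and 2.60, 73.6 and 232 CPM in 2-month members. Lor stood at 440.3, 1817 and 643 CPM in the top bands of the neonatal, 3-week and 2-month libraries and at no more than 22.8 CPM in any lower band. Itga6 had the opposite order, with 81.4, 41.8 and 8.36 CPM from the lowest to the top band in neonatal, 153, 89.5 and 29.4 CPM in 3-week, and 202, 74.7 and 37.9 CPM in 2-month members. Klf4 differed little between bands, from 707 to 1084 CPM in the neonatal and from 758 to 864 CPM in the 3-week library.

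The large differences between ages were present inside the bands. Krt77 had 6.51, 35.9 and 7.71 CPM from the lowest to the top band in neonatal, 5742, 8970 and 17040.4 CPM in 3-week, and 2733, 8090 and 12189 CPM in 2-month members. Stfa3 was highest in the lowest neonatal band, at 13264, 7784 and 8054 CPM, and reached at most 17.2 CPM in any later band. Fabp5 had 5843, 6850 and 13000.1 CPM in neonatal, 1185, 1568 and 2071 CPM in 3-week, and 386, 1041 and 1390.0 CPM in 2-month members. Krt16 was highest in the lowest neonatal band too, at 4030, 735 and 1446 CPM. Neonatal Flg was nearly limited to the top band, at 6.51, 0 and 1252 CPM.

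**Figure D4:**
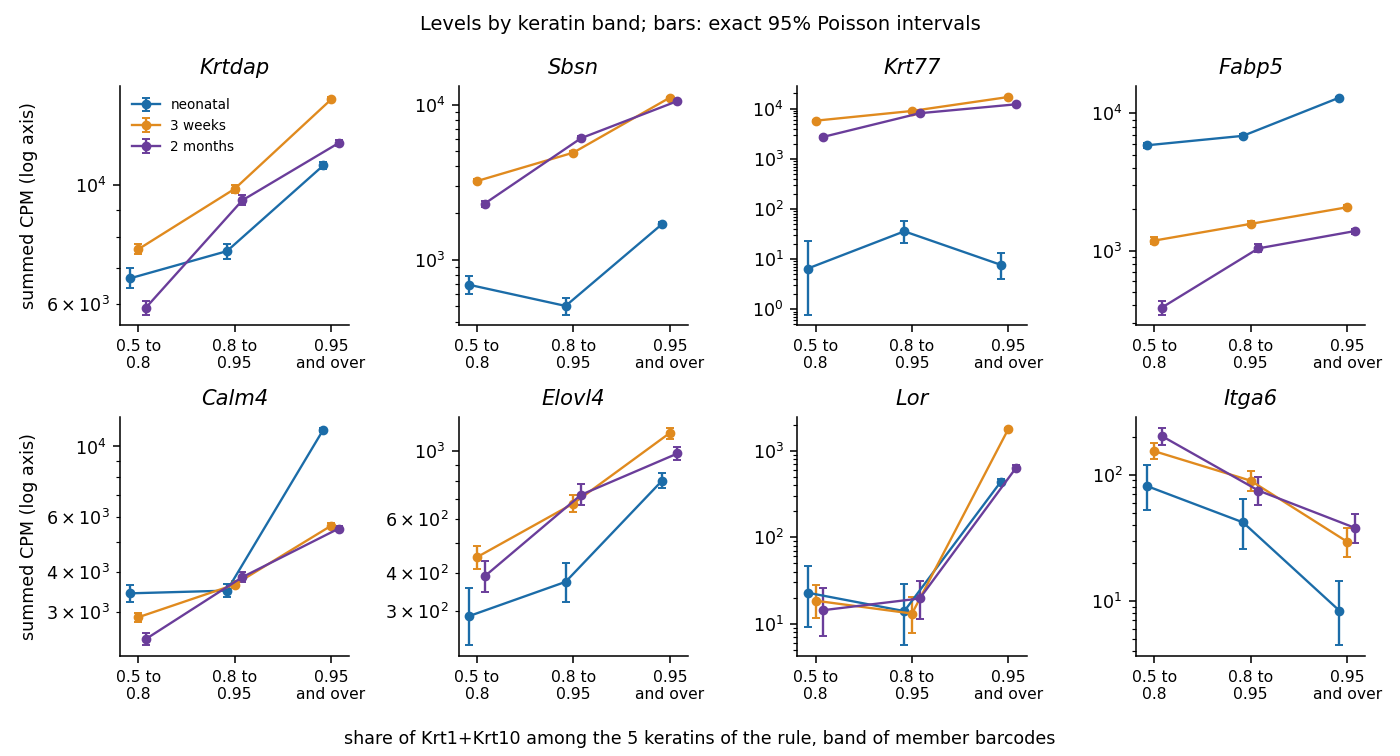
Summed CPM (log axis) of named genes in 3 bands of member barcodes, ordered by the share of Krt1+Krt10 among the 5 keratins of the rule, with 1 line per library and exact 95% Poisson intervals. Krtdap is highest in the top band of each library, at 10874, 14420.4 and 11971 CPM, and Itga6 lowest there, at 8.36, 29.4 and 37.9 CPM.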

How the data were processed

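Single-cell suspensions of mouse dorsal skin were profiled in droplets, and the deposited matrices hold the authors' UMI counts per gene and barcode, not normalized. Per the submitters' processing notes, Cell Ranger 3.0.2, Seurat 2.0 and the genome build mm10 were used, with settings not given in the sources used here, and whether counting used strand is not given either. The 3 libraries held 84086755, 113874172 and 98432611 UMIs in 8452, 10226 and 10190 barcodes (neonatal, 3 weeks, 2 months). Counts were summed over the members of each library and scaled to CPM over all genes. Levels have exact Poisson, shares exact Clopper-Pearson and ratios conditional binomial 95% intervals, all for counting error only, since each age is 1 library. Genes entered a comparison at a mean of 20 CPM, and calls were made at 2-fold. For ratios, counts of 0, 1 or 2 in a library were raised to 3, the floor. A ratio that rests on such a count, as for Flg2 with 1 neonatal UMI, is a bound and not a measured ratio.

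The members and gene lists were chosen with earlier results of these data known. Genes are named from 18 fixed lists, or as the 12 most extreme per direction of each comparison, for the age comparisons only where members held at least 2-fold the level of the other barcodes in the library with the higher level. Doublets stayed in. Scrublet (scanpy 1.11.5, expected rate 0.06) called 2 neonatal barcodes (0.0253%), too few to be usable, so the 6% with the highest scores were left out there in the alternative. In all, the alternative left out 6, 8 and 4 members in the 3 libraries. Python 3.11.15, numpy 2.4.6, scipy 1.17.1, pandas 2.3.3 and edgeR 4.0.16 (TMM scaling as an alternative) were used. The steps were tested on simulated data. Other alternatives changed the barcode limits, the keratin rule, the filter, the scaling, the weighting of barcodes and the thinning depth.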

Additional observations from a re-analysis of the deposited data

How the results depend on the processing

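No paired analysis was possible because each age is 1 library. Of 260 single-gene ratios recomputed under the alternatives, 233 kept their direction and size within error, 26 moved and 1 reversed. The reversed ratio was Flg2 at 2 months over 3 weeks, with a log2 value of 0.26 under a limit of 5 Krt17+Krt79 UMIs per 10000 in place of 5 UMIs, against -1.26. Other ratios changed sign without being counted as reversed. At 2 months over 3 weeks, Krt16 ranged from -1.55 to 2.10, against a main value of -0.53 whose interval of -1.37 to 0.27 spans 0. Sbsn ranged from -0.072 to 0.16 at that step, against 0.042. The cause of these and the other shifts was not tested.

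Counts of called genes moved with the filter and the scaling, and so did the number of genes that entered. At 3 weeks over neonatal, 2694 genes entered with a 50 CPM filter and 12489 with none, beside 5358 in the main setting. With mitochondrial, ribosomal, haemoglobin and rule genes out of the totals 6317 entered, and with TMM scaling 5560. Equal weight per barcode gave 5389, no collagen-positive members 5323, the top band 5245 and no highest barcode 5269. With a 50 CPM filter, 320 and 123 genes were higher and lower at 3 weeks than in the neonatal library, 21 and 37 at 2 months than at 3 weeks, and 164 and 102 in members than in basal-keratin barcodes. With no filter, 1922 and 1180 genes were higher and lower at 3 weeks, 489 and 537 at 2 months than at 3 weeks, and 799 were lower in members than in basal-keratin barcodes. With mitochondrial, ribosomal, haemoglobin and rule genes out of the totals, 394 genes were lower at 3 weeks and 405 lower in members than in basal-keratin barcodes, and the splits were 699 higher and 394 lower at 3 weeks and 56 and 91 at 2 months. TMM scaling gave 646 and 286, then 44 and 77, and for members over basal-keratin barcodes 366 and 187. The median ratio of all genes at 3 weeks over neonatal was 0.02 and 0.08 under these scalings. With equal weight per barcode, 76 genes were higher at 2 months than at 3 weeks. Without collagen-positive members, 41 were lower at 2 months. Within the top keratin band, an alternative chosen after seeing the data, 113 were higher at 2 months and 389 lower in members than in basal-keratin barcodes. For 3 weeks over neonatal, 572 of the 641 higher genes (89.2%) were also higher within that band, or 70.5% of its 811, and 207 of the 252 lower genes (82.1%) were also lower, or 62.7% of its 330. Leaving out each gene's highest barcode, also added later, gave 635 and 253 genes at 3 weeks and 48 and 62 at 2 months.

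Shares moved with the keratin limits. With Krt1+Krt10 at 5% of UMIs or more, members were 0.581% of the neonatal library and 0 at both later ages, so gene counts could not be computed there. With Krt1+Krt10 at least 2 times the basal keratins, members were 1.94% at 3 weeks and 1.45% at 2 months. Without thinning, Krt77 was found in 16.9%, 99.5% and 94.5% of neonatal, 3-week and 2-month members, Lor in 39.8%, 32.8% and 18.2%, Stfa3 in 22.4% at 3 weeks and 4.24% at 2 months, Krt16 in 83.1% of neonatal members, Flg in 5.47% and Flg2 in 13.9% of 3-week members. At 1500 UMIs, Krt77 was found in 82.4% at 2 months, Stfa3 in 0%, Krt16 in 45.8% of neonatal and 0% of 2-month members, Flg in 0% at 3 weeks and 0% at 2 months, Flg2 in 0% of neonatal and 0.606% of 2-month members, and Lor in 5.47% at 3 weeks and 1.21% at 2 months.

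List medians at 3 weeks over neonatal changed direction for 6 lists, namely cornified (-0.37 to 0.71), cell cycle (-1.02 to 0.32), stress (-7.49 to 1.44), desmosome (-0.0073 to 0.22), Notch (-0.042 to 0.23) and antioxidant (-0.077 to 0.28). At 2 months over 3 weeks the medians of 10 lists did so. At that step the SPRR median ranged from -2.47 to -0.49 and the cornified median from -0.88 to -0.25. The ratio of Lor at 3 weeks over neonatal ranged over the alternatives from 0.47 to 2.05. Genes of few UMIs, and all neonatal values that rest on 83 members and 32 basal-keratin barcodes, are limited by depth.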
